A study of Mus musculus and Homo sapiens with 24 samples.

Results

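The maturation phase of differentiation was compared between a human and a mouse myoblast line, gene by gene: day 12 over day 1 in LHCN-M2 was set against day 6 over day 1 in C2C12. Genes were matched by symbol with case ignored, and a symbol had to occur once in each count table. This gave 16608 matched symbols, of which 10953 had enough counts to be tested in both lines and form the set described here. The 4 groups compared were LHCN-M2 at day 12, LHCN-M2 at day 1, C2C12 at day 6 and C2C12 at day 1, with 4 libraries each out of 24 in the series. Every library has the genotype label control and the cell type label skeletal myoblast. LHCN-M2 is an established human line that carries introduced TERT and CDK4, and C2C12 is an established mouse line; each stands for its species as 1 line. Symbols are written in capitals for both species. The lines differ in species, in the genome and annotation their reads were counted on, and in the length of the phase, and these cannot be told apart here.

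Myoblasts that leave the cell cycle fuse into multinucleated myotubes. The early step is led by the transcription factors MYOD1, MYF5 and myogenin (MYOG). In the maturation that follows, the tubes assemble sarcomeres from myosin, actin, troponin and titin, build the calcium release apparatus that couples excitation to contraction, and cluster acetylcholine receptors. Cultures of both lines usually keep some mononucleated cells beside the myotubes.

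Total counts per library ran from 33030258 to 44505597 at day 12 and from 40403483 to 48546621 at day 1 of LHCN-M2, and from 34159505 to 42389647 at day 6 and from 38243536 to 43827517 at day 1 of C2C12. The 8 skeletal muscle markers summed to 6691 to 7676 CPM (counts scaled to library size) at day 12 and 1693 to 1988 CPM at day 1 of LHCN-M2, and to 2589 to 2744 CPM at day 6 and 367.3 to 408 CPM at day 1 of C2C12. The markers were MYOD1, MYOG, DES, ACTA1, MYH3, CKM, TNNT1 and TTN. In both lines the sum was higher on the late day, although MYOD1 itself was lower at day 12 than at day 1 of LHCN-M2. Replicate 1 of LHCN-M2 at day 12 stood apart from the other 3 libraries of its group more often than any other library. It gave 10 of the 29 values flagged as far from their group, and the main counts are also given without it below. The spread between libraries was larger in LHCN-M2, with a biological coefficient of variation of 17.8%, than in C2C12, with 10.9%, so a change of the same size was called less readily in the human line. The labels do not say whether the 4 libraries of a group came from separate cultures, so the p-values rest on differences among libraries that may be technical repeats. In bulk RNA, fewer cells of a type and less RNA per cell cannot be told apart, and this holds for every group of genes below.

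Levels are CPM on library sizes scaled within each line. Values are given per library in the order of the replicate numbers, or as mean ± SD over n = 4 libraries. Changes are log2 fold changes ± SE from edgeR's quasi-likelihood test, "higher" and "lower" mean a Benjamini-Hochberg adjusted p under 0.05 in that test, and the difference between the lines is the LHCN-M2 change minus the C2C12 change, tested as an interaction. CPM levels of the lines rest on different annotations and are not compared with each other.

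Both lines changed a large part of the matched genes, and a shared direction was more frequent than an opposite one among genes that changed in both. In LHCN-M2, 2746 of the 10953 genes were higher at day 12 (25.1%) and 2487 were lower (22.7%). In C2C12, 4520 were higher at day 6 (41.3%) and 3450 were lower (31.5%). Either direction was called for 47.8% of the genes in LHCN-M2 and for 72.8% in C2C12. The libraries of the late day and day 1 did not overlap for 55% of the genes in LHCN-M2 and 68.2% in C2C12. Both lines raised 1523 genes (13.9%) and lowered 1141 (10.4%). The shared rises were 55.5% of the genes higher in LHCN-M2 and 33.7% of those higher in C2C12, and the shared falls were 45.9% and 33.1% of the genes lower in each. A further 594 genes (5.42%) were higher in LHCN-M2 and lower in C2C12, and 688 (6.28%) were lower in LHCN-M2 and higher in C2C12. Of the 3946 genes called in both lines, 67.5% moved the same way. Changes of at least 2-fold in both lines were rarer: 273 genes rose and 99 fell in both, 83 rose in LHCN-M2 and fell in C2C12, and 43 did the reverse.

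A shared direction did not mean a shared size. The difference between the lines was called for 6237 genes (56.9%), with 2962 higher (27%) and 3275 lower (29.9%) in LHCN-M2 relative to C2C12. That test takes 1 estimate of the spread for both lines, although the spread was larger in LHCN-M2. Its SE can thus be too small for the human part, and the number of calls too high. Among the 1523 shared rises the LHCN-M2 change was larger in 350 and smaller in 344, and 829 did not pass the test of the difference. Among the 1141 shared falls, 305 had a positive and 201 a negative difference. Another 1696 genes were called in neither line. Across the 10953 genes the 2 fold changes had a Spearman correlation of 0.247 and a Pearson correlation of 0.339, as a description only, since genes are not independent replicates and all changes of a line share its day 1 libraries. The median change over all genes was 0.01 in LHCN-M2 and 0.08 in C2C12 on the log2 scale, and the median difference was -0.05. Without replicate 1 of LHCN-M2 day 12, the counts were 2517 higher and 2296 lower in LHCN-M2, 2926 higher and 3321 lower for the difference, 1363 and 1037 for shared rises and falls, and 586 and 661 for the opposite changes.

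**Figure D1:**
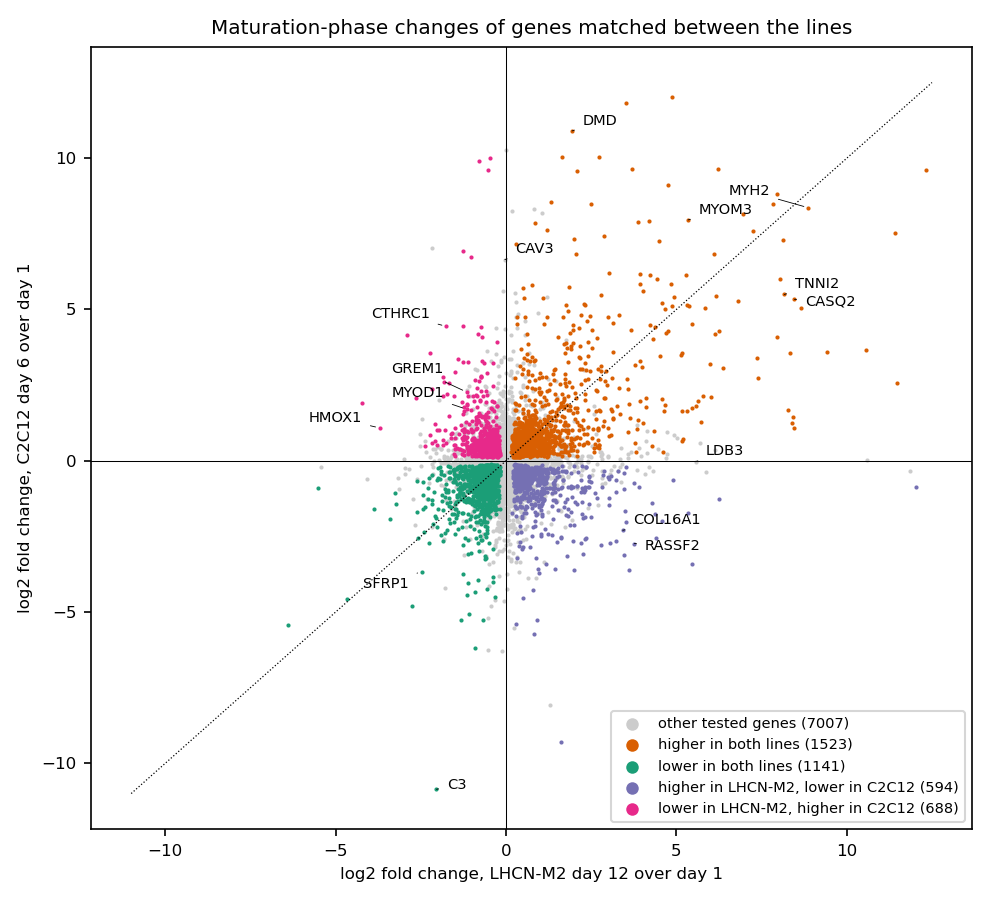
Each point is 1 of the 10953 matched genes, with its log2 fold change in LHCN-M2 (day 12 over day 1) on the horizontal axis and in C2C12 (day 6 over day 1) on the vertical axis; colours mark the shared and opposite calls, and the dotted line marks equal changes. The far upper right holds sarcomere genes such as MYH2, and the opposite quadrants hold RASSF2 and COL16A1 on one side and CTHRC1 and HMOX1 on the other; fitted changes of genes near 0 counts in a group, such as DMD in C2C12, depend on the prior count.

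Of the 8 shared rises described, 6 are genes of the sarcomere list. They were those with the largest rise in the line where each rose less, at 10 CPM or more on at least 1 day in each line and with more than 3 counts summed over each of the 4 groups, and the libraries of the 2 days did not overlap for them in either line. MYH2 (chr17:10521148-10549957 on GRCh38, whole gene), a fast myosin heavy chain, had 103, 103, 101 and 109 CPM at day 12 of LHCN-M2, against 0.39, 0.334, 0.0814 and 0.0959 at day 1. C2C12 had 14.2, 12.7, 15.6 and 16.5 CPM at day 6, against 0.0895, 0.0721, 0 and 0 at day 1. Its change was 8.86 ± 0.41 in LHCN-M2 and 8.37 ± 0.35 in C2C12, and the difference of 0.49 ± 1.37 did not pass the test (adjusted p = 0.782). The myosin heavy chain genes lie in a cluster of near-identical copies, so reads of MYH2 may have been split with its neighbours. CASQ2 (chr1:115700007-115768781), a calcium store of the sarcoplasmic reticulum, had 361, 406, 378 and 395 CPM at day 12 of LHCN-M2, against 1.61, 0.334, 1.34 and 1.08 at day 1. In C2C12 it had 192, 184, 182 and 189.7 CPM at day 6, against 4.99, 5.89, 2.56 and 5.12 at day 1. It rose more in LHCN-M2, by 8.46 ± 0.29 against 5.33 ± 0.17 in C2C12, with a difference of 3.13 ± 0.34 (adjusted p = 4.11e-08).

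MYOM3 (chr1:24056035-24112175), a protein of the M-band that ties thick filaments together, had 80.6, 95.1, 87.5 and 105 CPM at day 12 of LHCN-M2, against 1.2, 2.11, 3.34 and 2.32 at day 1. The C2C12 libraries had 11.8, 12.4, 11.5 and 14.9 CPM at day 6, against 0, 0, 0.0921 and 0.103 at day 1. Unlike CASQ2 it rose more in C2C12, with a difference of -2.62 ± 0.68 (adjusted p = 0.00221). TNNI2 (chr11:1838989-1841680), the inhibitory troponin subunit of fast fibres, had 26.7, 18.6, 19.6 and 23.1 CPM at day 12 of LHCN-M2, against 0.0244, 0.089, 0.0407 and 0.144 at day 1. Its C2C12 values were 97.9, 105, 92.5 and 106 CPM at day 6, against 2.21, 2.21, 1.5 and 3.01 at day 1. Its rise was the larger in LHCN-M2 (difference 2.67 ± 0.62, adjusted p = 0.000811). For both genes every late library stood far above every day 1 library of its line.

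The remaining 4 shared rises differed less between the lines than CASQ2, MYOM3 and TNNI2 did. MYL1, an essential light chain of fast myosin, averaged 196 ± 7.74 CPM at day 12 and 5.01 ± 0.715 CPM at day 1 of LHCN-M2, and 279 ± 10.6 CPM at day 6 and 4 ± 0.733 CPM at day 1 of C2C12, and its rise was slightly smaller in LHCN-M2 (difference -0.84 ± 0.22, adjusted p = 0.0021). TNNT3, the fast troponin that binds tropomyosin, rose by 5.3 ± 0.19 in LHCN-M2 and 5.14 ± 0.14 in C2C12, with a difference of 0.16 ± 0.24 that did not pass the test (adjusted p = 0.591). CSRP3, the muscle LIM protein, rose by 6.11 ± 0.27 and 6.83 ± 0.35 in the same order (difference -0.73 ± 0.55, adjusted p = 0.266). APOBEC2, a muscle member of the cytidine deaminase family, rose by 6.17 ± 0.25 in LHCN-M2 and 5.45 ± 0.22 in C2C12 (difference 0.71 ± 0.37, adjusted p = 0.101). A missed threshold does not show that these changes were equal.

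**Figure D2:**
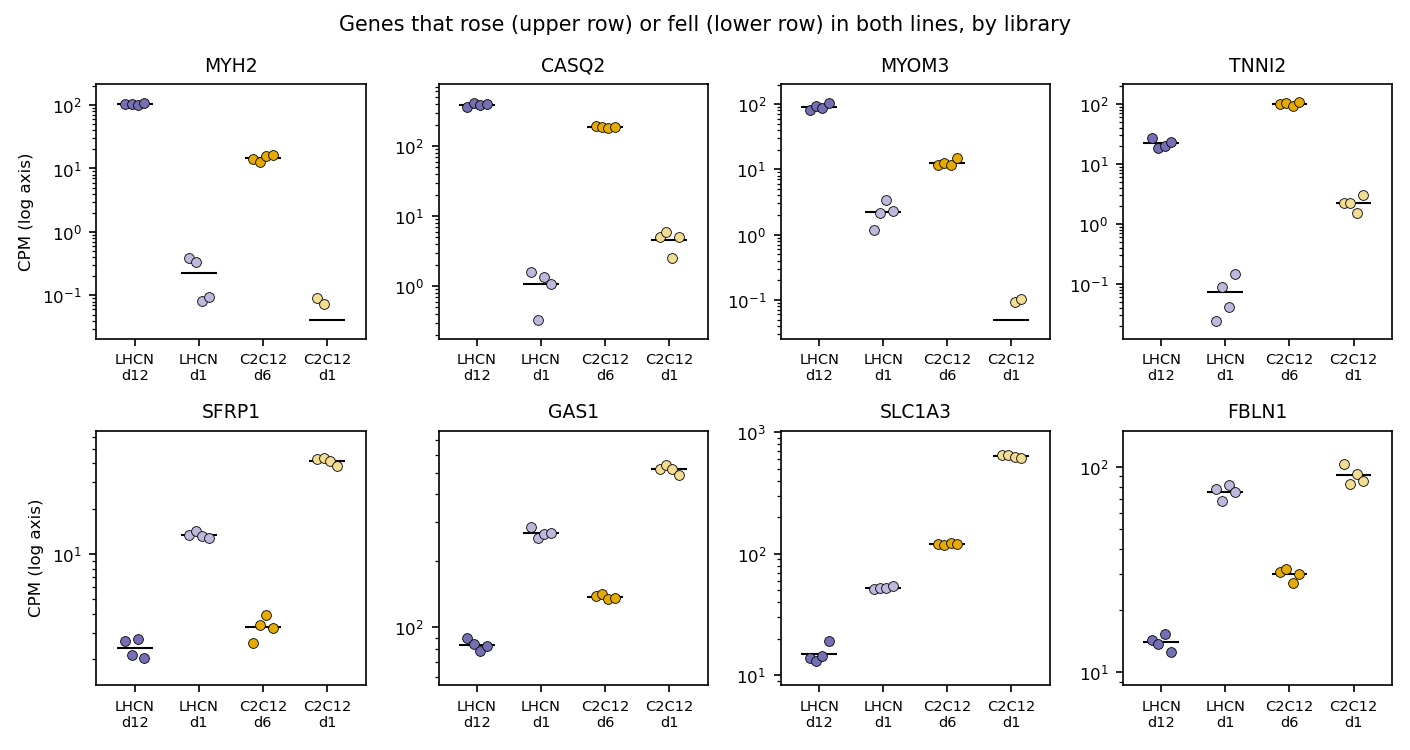
CPM by library on log axes for 4 genes that rose (upper row) and 4 that fell (lower row) in both lines; points are single libraries, bars are group means, and libraries at 0 are not drawn but enter the mean (2 of MYH2 and 2 of MYOM3 at day 1 of C2C12). In every panel the late and day 1 libraries of a line are separate, with the late libraries above day 1 in the upper row and below it in the lower row.

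Of 63 sarcomere genes listed, 56 were tested in both lines. In LHCN-M2, 51 were higher and 1 was lower, against 25.1% and 22.7% of all genes. In C2C12, 51 were higher and 1 was lower, against 41.3% and 31.5%. Higher in both were 48, against 13.9% of all genes. The median change of the 56 was 4.27 in LHCN-M2 and 4.71 in C2C12, with a median difference of -0.43, or -0.35 when each member with 0 counts takes its bound. The members nonetheless differed in the size of their change. A positive difference was called for 14 and a negative one for 25, against 27% and 29.9% of all genes. The positive count lies near its share. Members absent at day 1 had to rise to pass the filter, so these counts describe the list and do not support a direction.

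Several sarcomere genes were at or near 0 counts at day 1. LMOD2, which seeds actin filaments at their pointed end, had 6253 counts summed over day 12 and 2 over day 1 of LHCN-M2, a 3467-fold ratio (95% interval of counting error 959.4 to 28636). It had 18.7, 18.8, 21.2 and 18.3 CPM at day 6 of C2C12, against 0.0895, 0.168, 0.046 and 0.103 at day 1. MYBPC1, a myosin-binding protein of slow fibres, had 15.2, 17.6, 15.7 and 14 CPM at day 12 of LHCN-M2, against 0 CPM in every library at day 1. Day 6 of C2C12 had 2.28, 3, 2.21 and 2.55 CPM, against 0 CPM in every library at day 1. It was at least 912-fold higher at day 12 of LHCN-M2 and at least 140-fold higher at day 6 of C2C12, against a floor of 3 counts over the group. XIRP2, an actin-binding repeat protein of muscle, had 4.94, 9.59, 9.79 and 10.3 CPM at day 12 of LHCN-M2, against 0 CPM in every library at day 1, so it was at least 504-fold higher, while C2C12 already held 4.36 ± 0.873 CPM at day 1 and reached 26 ± 3.98 CPM at day 6. Replicate 1 of LHCN-M2 day 12 had the lowest XIRP2 value of its group. SMPX, a small protein of the costamere region, averaged 49.8 ± 1.21 CPM at day 12 and 0.67 ± 0.2 CPM at day 1 of LHCN-M2, and 12.2 ± 0.264 CPM at day 6 and 0.0112 ± 0.0224 CPM at day 1 of C2C12, and in C2C12 its counts were 1846 at day 6 and 2 at day 1, a 1023-fold ratio (interval 282.8 to 8452).

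One sarcomere gene was opposite. MYBPC2, the myosin-binding protein of fast fibres, had 1.78, 3.37, 2.79 and 2.7 CPM at day 12 of LHCN-M2, against 5.39, 6.83, 6.63 and 6.49 at day 1, a change of -1.26 ± 0.21 (adjusted p = 0.000547). It had 3.69, 2.544, 3.52 and 3.22 CPM at day 6 of C2C12, against 0.0671, 0, 0.023 and 0 at day 1. The human libraries thus fell and the mouse libraries rose without overlap in either line (adjusted p of the difference = 9.25e-11).

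MEF2 factors bind an A/T-rich element in many muscle genes. The letters CTANNNNTA, read on both strands, were found in 27 of the 46 mouse sarcomere promoters at hand (58.7%), against 23.5% of the 27025 mouse genes with a promoter in the RefSeq table (GRCm38.p6, 250 bases before to 50 after the start). The promoter of Smpx (chrX:157698723-157699022, plus strand) is shown because its gene rose in both lines from a low level; the capitals mark 2 overlapping matches, 1 on each strand, which begin 126 and 125 bases before the start. A match is a description and not a shown site, and no match printed here or below overlaps a match of another of the 4 motifs searched.
Smpx: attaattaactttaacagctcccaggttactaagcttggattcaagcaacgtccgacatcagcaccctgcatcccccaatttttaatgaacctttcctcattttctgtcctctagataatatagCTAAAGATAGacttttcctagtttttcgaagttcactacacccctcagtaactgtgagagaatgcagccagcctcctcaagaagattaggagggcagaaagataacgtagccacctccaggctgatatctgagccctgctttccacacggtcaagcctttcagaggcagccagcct

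Genes of the calcium release apparatus tended to rise. In excitation-contraction coupling, 16 of 22 tested genes were higher and 2 lower in LHCN-M2, and 17 were higher and 1 lower in C2C12, against 25.1% and 41.3% of all genes higher. In both lines 12 were higher, against 13.9% of all genes. The median changes were 1.93 and 1.97. A positive difference was called for 9 and a negative one for 9, against 27% and 29.9% of all genes. TRDN (triadin, which anchors calsequestrin to the calcium release channel) had 9.17, 12.9, 10.4 and 13 CPM at day 12 of LHCN-M2, against 0 CPM in every library at day 1. Mouse values were 9.15, 8.39, 10.6 and 11.4 CPM at day 6, against 10.02, 12.49, 15.1 and 12 at day 1 of C2C12. It was at least 666-fold higher at day 12 of LHCN-M2, whereas its change of -0.33 ± 0.17 in C2C12 did not pass the test (adjusted p = 0.0997). The transcript was already present at day 1 of C2C12. SRL (sarcalumenin, a luminal calcium-binding protein) had 2083 counts over day 12 and 1 over day 1 of LHCN-M2, a 2310-fold ratio (interval 414.1 to 91281), and 112 ± 3.22 CPM at day 6 and 8.85 ± 1.25 CPM at day 1 of C2C12. JSRP1, a junctional protein of the sarcoplasmic reticulum, was opposite, with 43.2 ± 4.62 CPM at day 12 and 76.7 ± 7.81 CPM at day 1 of LHCN-M2 (change -0.83 ± 0.29, adjusted p = 0.0345) and 25.8 ± 1.15 CPM at day 6 and 1.4 ± 0.586 CPM at day 1 of C2C12 (change 4.2 ± 0.21). Its fall in LHCN-M2 was lost with DESeq2 (adjusted p = 0.0503) and without any 1 of replicates 1, 3 and 4 of day 1 and 2, 3 and 4 of day 12 (adjusted p 0.0562 to 0.0855).

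At the neuromuscular junction, 7 of 11 tested genes were higher and 0 lower in LHCN-M2, and 9 were higher and 1 lower in C2C12, against 25.1% and 41.3% of all genes higher. Median changes were 0.86 and 2.19. The difference was negative in 8 members, against 29.9% of all genes, and positive in 2, against 27%. LRP4, the agrin receptor, was 1 of those 2 and had 70.5, 111, 96.1 and 111 CPM at day 12 of LHCN-M2, against 17.2, 18.1, 19.3 and 18.2 at day 1. At day 6 of C2C12 the values were 94, 72.3, 94.9 and 85.4 CPM, against 78.1, 68.6, 82.3 and 79.6 at day 1. LRP4 rose in LHCN-M2 (2.42 ± 0.21, adjusted p = 2.97e-07) and did not pass the test in C2C12 (0.17 ± 0.12, adjusted p = 0.235). The difference was 2.25 ± 0.26 (adjusted p = 9.2e-08).

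The dystrophin complex, which links the cytoskeleton to the matrix, held members of both directions. Of 19 tested members, 7 were higher and 6 lower in LHCN-M2, against 25.1% and 22.7% of all genes, and 10 were higher and 8 lower in C2C12, against 41.3% and 31.5%. These shares lie near those of all genes. DMD (dystrophin) had 123, 208, 182 and 191 CPM at day 12 of LHCN-M2, against 44.5, 42.5, 50.9 and 45.7 at day 1. In the mouse line it had 6.82, 5.18, 6.24 and 6.47 CPM at day 6, against 0 CPM in every library at day 1. It rose in both lines, by 1.94 ± 0.18 in LHCN-M2 and at least 350-fold in C2C12, where 948 counts at day 6 stood against 0 at day 1. Replicate 1 of LHCN-M2 day 12 had the lowest of the day 12 values. SGCA (alpha-sarcoglycan) had 174, 156, 173 and 185 CPM at day 12 of LHCN-M2, against 273, 229.9, 269 and 248 at day 1. C2C12 had 30.2, 30.5, 27.1 and 27.7 CPM at day 6, against 3.69, 4.35, 2.83 and 4.66 at day 1. It fell by 0.57 ± 0.15 in LHCN-M2 and rose by 2.9 ± 0.14 in C2C12 (difference -3.46 ± 0.22, adjusted p = 2.13e-12).

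Of 32 regulators and fusion genes, 27 were tested: 11 were higher and 5 lower in LHCN-M2, 15 were higher and 8 lower in C2C12, and 10 were higher in both, against 25.1%, 22.7%, 41.3%, 31.5% and 13.9% of all genes in that order. MYOG, the factor of terminal differentiation, had 362, 339.6, 378 and 369 CPM at day 12 of LHCN-M2, against 89.9, 69.3, 86.1 and 73.7 at day 1. In C2C12 it had 142, 148, 138 and 143 CPM at day 6, against 12.53, 16.2, 12.2 and 13.8 at day 1. MYOG rose in both lines with the smaller rise in LHCN-M2 (difference -1.2 ± 0.12, adjusted p = 3.36e-08). MYOD1 (chr11:17719568-17722131), the factor that commits cells to the lineage, had 126, 105, 119 and 118 CPM at day 12 of LHCN-M2, against 286, 235, 280.3 and 245 at day 1. The C2C12 libraries had 20.1, 19.2, 16.9 and 21.7 CPM at day 6, against 6.98, 5.86, 4.67 and 6.41 at day 1. It fell by 1.16 ± 0.11 in LHCN-M2 and rose by 1.7 ± 0.14 in C2C12, and no library of one day reached the range of the other (difference -2.86 ± 0.17, adjusted p = 1.28e-12). MYF5, its relative in early myoblasts, fell in LHCN-M2 only: it had 14.2 ± 2.09 CPM at day 12 and 64.6 ± 3.19 CPM at day 1 of LHCN-M2, and 35.8 ± 2.48 CPM at day 6 and 38.1 ± 3.73 CPM at day 1 of C2C12, where the change of -0.09 ± 0.08 did not pass the test (adjusted p = 0.328).

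The fusion peptide and the inhibitors of MYOD1 also differed. MYMX (myomixer), a membrane micropeptide of cell fusion, had 45.9, 33.3, 40.5 and 36.6 CPM at day 12 of LHCN-M2, against 74.2, 56.1, 70.4 and 56.3 at day 1. Its C2C12 values were 24.9, 26.3, 21.4 and 21.1 CPM at day 6, against 1.21, 1.49, 0.8288 and 1.96 at day 1. It fell by 0.72 ± 0.15 in LHCN-M2 and rose by 4.1 ± 0.23 in C2C12. ID2, which blocks MYOD1 from binding its partners, averaged 17.1 ± 2.04 CPM at day 12 and 29.6 ± 1.38 CPM at day 1 of LHCN-M2, and 23.8 ± 1.31 CPM at day 6 and 9.77 ± 1.73 CPM at day 1 of C2C12, again lower in LHCN-M2 and higher in C2C12 (difference -2.08 ± 0.18, adjusted p = 6.9e-10). ID3 had 12.6 ± 1.8 CPM at day 12 and 15.4 ± 1.34 CPM at day 1 of LHCN-M2, and 13.4 ± 0.801 CPM at day 6 and 81.9 ± 10.1 CPM at day 1 of C2C12; it fell by 2.61 ± 0.08 in C2C12, and its change of -0.28 ± 0.13 in LHCN-M2 did not pass the test (adjusted p = 0.108).

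Genes of mitosis rose in both lines during the maturation phase. Of 36 tested members, 32 were higher and 0 lower in LHCN-M2, 34 were higher and 1 lower in C2C12, and 32 were higher in both, against 25.1% and 41.3% of all genes. The median changes were 0.93 and 0.83, against 0.01 and 0.08 over all genes. CENPA, the histone of centromeres, had 5.72, 3.37, 3.92 and 2.32 CPM at day 12 of LHCN-M2, against 1.44, 0.868, 0.244 and 0.887 at day 1. Day 6 of C2C12 had 107, 126, 111 and 121 CPM, against 68, 66.9, 68.6 and 70.3 at day 1. Its rise was larger in LHCN-M2 (difference 1.43 ± 0.34, adjusted p = 0.00107). MKI67, a protein of dividing nuclei, had 35.6, 52.3, 47.2 and 47 CPM at day 12 of LHCN-M2, against 21, 22.9, 18 and 20.3 at day 1. Mouse values were 434, 327, 441 and 415 CPM at day 6, against 289, 316, 325 and 331 at day 1 of C2C12. Its libraries of day 12 and day 1 were separate in LHCN-M2, whereas 1 library of C2C12 day 6 fell within the range of day 1. At day 0, before differentiation, MKI67 had stood at 289 ± 84.1 CPM in LHCN-M2 and 369.6 ± 32.1 CPM in C2C12. ECT2, a regulator of cytokinesis, averaged 42.2 ± 2.15 CPM at day 12 and 25.9 ± 2.18 CPM at day 1 of LHCN-M2, and 159.7 ± 7.58 CPM at day 6 and 69.3 ± 4.22 CPM at day 1 of C2C12, and it rose more in C2C12 (difference -0.5 ± 0.11, adjusted p = 0.000347). CCNB2, a cyclin of mitosis, averaged 11.2 ± 1.86 CPM at day 12 and 7.73 ± 0.942 CPM at day 1 of LHCN-M2, and 124 ± 8.64 CPM at day 6 and 72.6 ± 2.73 CPM at day 1 of C2C12, with changes of 0.53 ± 0.12 and 0.77 ± 0.06 (difference -0.24 ± 0.14, adjusted p = 0.139). The difference was positive for 11 of the 36 mitosis genes and negative for 3, against 27% and 29.9% of all genes. The positive count lies near its share. The negative count was 7 without replicate 1 of LHCN-M2 day 12.

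Many genes of mitosis carry a cell cycle homology region in their promoter. Its letters TTTGAA, read on both strands, were in 22 of 29 mouse mitosis promoters at hand (75.9%), against 20.2% of 27025. The Ccnb2 promoter (chr9:70421505-70421804, minus strand) is shown as an example from a group that rose in both lines; the capitals mark 2 matches, which begin 167 bases before and 4 bases after the first base of the gene.
Ccnb2: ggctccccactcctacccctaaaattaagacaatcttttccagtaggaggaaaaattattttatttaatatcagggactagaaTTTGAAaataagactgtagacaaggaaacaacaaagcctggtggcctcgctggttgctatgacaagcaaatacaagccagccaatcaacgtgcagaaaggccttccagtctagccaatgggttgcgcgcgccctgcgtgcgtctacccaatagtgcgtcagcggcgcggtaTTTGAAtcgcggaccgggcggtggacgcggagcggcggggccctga

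DNA replication genes were higher mainly in C2C12. Of 41 tested members, 14 were higher and 4 lower in LHCN-M2, against 25.1% and 22.7% of all genes. In C2C12, 35 were higher and 2 lower, against 41.3% and 31.5%. Lower in LHCN-M2 and higher in C2C12 were 4, against 6.28% of all genes. TYMS (thymidylate synthase) was 1 of these 4, with 6.5, 5.53, 4.87 and 3.89 CPM at day 12 of LHCN-M2, against 8.9, 8.77, 7.63 and 7.57 at day 1, a change of -0.66 ± 0.13, and 70.4, 75, 66.5 and 73.5 CPM at day 6 of C2C12, against 47.9, 42.7, 41.8 and 45.2 at day 1, a rise of 0.68 ± 0.07 (difference -1.35 ± 0.15, adjusted p = 4.37e-08). The difference was negative for 12 members and positive for 1, against 29.9% and 27% of all genes. The negative count lies near its share. The count of positive ones was 2 to 4 under some alternatives. Among the 15 tested cell cycle inhibitors and related genes, 5 were higher and 4 lower in LHCN-M2, against 25.1% and 22.7% of all genes. In C2C12, 9 were higher and 2 lower, against 41.3% and 31.5%. CDKN1C, the inhibitor p57, had 234 ± 15 CPM at day 12 and 90.9 ± 12.2 CPM at day 1 of LHCN-M2, a rise of 1.36 ± 0.11, while its change of -0.17 ± 0.27 in C2C12 did not pass the test (adjusted p = 0.61). CCNG2, an atypical cyclin linked to arrest, averaged 98.6 ± 2.99 CPM at day 12 and 218 ± 5.42 CPM at day 1 of LHCN-M2, and 107 ± 7.58 CPM at day 6 and 79.2 ± 1.33 CPM at day 1 of C2C12, opposite in direction (difference -1.57 ± 0.09, adjusted p = 2.62e-13).

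Genes of the ATF4 amino acid response also rose in both lines. This is the program that cells use to make and import amino acids. Of 24 tested members, 18 were higher and 3 lower in LHCN-M2, 20 were higher and 4 lower in C2C12, and 16 were higher in both, against 25.1%, 41.3% and 13.9% of all genes higher. The median changes were 1.05 and 1.01. CHAC1, a glutathione-degrading enzyme of this response, had 24.6, 23.8, 23.4 and 28.6 CPM at day 12 of LHCN-M2, against 1.46, 1.51, 2.14 and 1.37 at day 1. At day 6 of C2C12 the values were 18, 19.6, 17.5 and 18.1 CPM, against 6.2, 3.99, 4.21 and 3.99 at day 1. Its rise was larger in LHCN-M2 (difference 1.96 ± 0.2, adjusted p = 1.24e-08). VLDLR, a lipoprotein receptor, averaged 12.9 ± 2.14 CPM at day 12 and 5.17 ± 0.679 CPM at day 1 of LHCN-M2, and 58.9 ± 2.95 CPM at day 6 and 0.154 ± 0.121 CPM at day 1 of C2C12, with the far larger rise in C2C12 (difference -7.23 ± 0.32, adjusted p = 2.27e-15). STC2 (stanniocalcin 2) was opposite, with 928, 906, 888 and 916 CPM at day 12 of LHCN-M2, against 1772, 1646, 1683 and 1727 at day 1, and 9.97, 8.3, 9.71 and 8.32 CPM at day 6 of C2C12, against 1.57, 0.865, 1.36 and 1.9 at day 1 (difference -3.58 ± 0.15, adjusted p = 1.24e-15).

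The 8 strongest shared falls were chosen in the same way. SLC1A3 (chr5:36606355-36688334), a glutamate transporter, had 13.7, 13.1, 14.4 and 19 CPM at day 12 of LHCN-M2, against 50.8, 52.5, 51.8 and 54.7 at day 1. In the mouse line it had 121, 119, 122 and 119.9 CPM at day 6, against 644, 648, 630.3 and 610.3 at day 1. It fell by 1.8 ± 0.16 in LHCN-M2 and fell by 2.4 ± 0.05 in C2C12, and the fall was the larger in C2C12 (difference 0.6 ± 0.16, adjusted p = 0.00305). COL27A1 (chr9:114155560-114312511), a fibrillar collagen, had 11, 11.5, 11.3 and 11.9 CPM at day 12 of LHCN-M2, against 43.4, 45.2, 51.7 and 49.5 at day 1. C2C12 had 4.95, 3.94, 3.41 and 3.47 CPM at day 6, against 14.8, 12.2, 14.4 and 16.8 at day 1. The changes of -2.06 ± 0.08 in LHCN-M2 and -1.88 ± 0.14 in C2C12 gave a difference of -0.17 ± 0.16 that did not pass the test (adjusted p = 0.351). GAS1, a membrane co-receptor for hedgehog, had 89.2, 83.9, 78.6 and 82.6 CPM at day 12 of LHCN-M2, against 283, 253, 264 and 267 at day 1. In C2C12 it had 139, 141, 134 and 136 CPM at day 6, against 521, 538, 520.2 and 489 at day 1. All 3 genes kept the libraries of the late day below those of day 1.

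SFRP1, a secreted inhibitor of WNT signals, averaged 2.39 ± 0.352 CPM at day 12 and 13.4 ± 0.561 CPM at day 1 of LHCN-M2, and 3.28 ± 0.566 CPM at day 6 and 41.5 ± 2.12 CPM at day 1 of C2C12, and fell further in C2C12 (difference 1.18 ± 0.18, adjusted p = 7.72e-06). FBLN1 (fibulin 1), a matrix glycoprotein, averaged 14 ± 1.16 CPM at day 12 and 75.9 ± 5.9 CPM at day 1 of LHCN-M2, and 30.01 ± 1.93 CPM at day 6 and 91.1 ± 9.27 CPM at day 1 of C2C12, and fell further in LHCN-M2 (difference -0.84 ± 0.12, adjusted p = 1.7e-06). KCND1, a voltage-gated potassium channel, fell by 2.62 ± 0.2 in LHCN-M2 and fell by 1.69 ± 0.16 in C2C12 (difference -0.93 ± 0.27, adjusted p = 0.00456). C1QTNF1, a secreted protein of the C1q and TNF family, fell by 1.66 ± 0.22 in LHCN-M2 and fell by 2.07 ± 0.11 in C2C12 (difference 0.42 ± 0.24, adjusted p = 0.142). IFITM1, an interferon-induced membrane protein, had 3.43, 2.7, 3.08 and 2.9 CPM at day 12 of LHCN-M2, against 26.7, 6.72, 20.2 and 10.7 at day 1, with a wide spread at day 1, and 4.78, 3.91, 3.95 and 4.68 CPM at day 6 of C2C12, against 25.9, 21.7, 20.2 and 21.6 at day 1 (difference -0.04 ± 0.47, adjusted p = 0.949). The IFITM genes form a multigene family, so the match by symbol and the counting of reads are both uncertain for it.

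Ribosomal protein genes fell broadly in LHCN-M2 and in part in C2C12. Of 46 tested, 0 were higher and 38 lower in LHCN-M2, against 22.7% of all genes lower. In C2C12, 5 were higher and 24 lower, against 41.3% and 31.5%. Lower in both were 21, against 10.4% of all genes. The median changes were -0.60 and -0.15. The difference was negative for 25 members, against 29.9% of all genes. That count ran from 16 without replicate 2 of C2C12 day 6 to 39 in a fit of the 16 libraries of the compared days. These genes have many processed copies in both genomes, so their counts are uncertain.

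Of the 594 genes that were higher in LHCN-M2 and lower in C2C12, the 8 with the largest change in the line where each changed less are described, and 2 of them are collagen genes. RASSF2 (chr20:4780023-4823645), a protein with a Ras association domain, had 34.3, 40.4, 39.4 and 40.3 CPM at day 12 of LHCN-M2, against 2.83, 2.14, 2.79 and 3.59 at day 1. The C2C12 libraries had 7.35, 5.21, 5.62 and 7.32 CPM at day 6, against 45.6, 43.6, 40.6 and 41.1 at day 1. Its changes were 3.77 ± 0.22 and -2.74 ± 0.11, with a difference of 6.51 ± 0.23 (adjusted p = 6.09e-17). COL16A1 (chr1:31652247-31704319), a collagen that associates with fibrils, had 119, 112, 118 and 122 CPM at day 12 of LHCN-M2, against 11.9, 9.93, 10.3 and 11.6 at day 1. Its C2C12 values were 24.5, 22.1, 22.3 and 20.4 CPM at day 6, against 119, 98.9, 122 and 99.9 at day 1. The changes were 3.43 ± 0.15 in LHCN-M2 and -2.3 ± 0.08 in C2C12 (difference 5.73 ± 0.17, adjusted p = 3.94e-18). COL6A3, a chain of the collagen VI network around muscle fibres, had 78.3, 102, 97.6 and 105 CPM at day 12 of LHCN-M2, against 20.03, 18.5, 20.4 and 17.4 at day 1. Day 6 of C2C12 had 559.7, 435, 542 and 520.2 CPM, against 1858, 1669, 1961 and 1958 at day 1 (difference 4.18 ± 0.21, adjusted p = 2.11e-14). In all 3 the days were separate in both lines and in opposite order.

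The other 5 genes of this class were of varied function. SLC6A17, a neutral amino acid transporter, averaged 21.6 ± 3.01 CPM at day 12 and 2.3 ± 0.459 CPM at day 1 of LHCN-M2, and 3.3 ± 0.639 CPM at day 6 and 20.6 ± 2.14 CPM at day 1 of C2C12. SLC4A4, a sodium bicarbonate cotransporter, averaged 28.8 ± 1.75 CPM at day 12 and 6.06 ± 1.69 CPM at day 1 of LHCN-M2, and 3.11 ± 0.775 CPM at day 6 and 11.5 ± 0.94 CPM at day 1 of C2C12. The endothelial surface anticoagulant THBD (thrombomodulin) averaged 26.7 ± 0.699 CPM at day 12 and 6.74 ± 1.29 CPM at day 1 of LHCN-M2, and 13.5 ± 2.49 CPM at day 6 and 58.9 ± 3.4 CPM at day 1 of C2C12. These genes differed between the lines by 5.87 ± 0.25, 4.14 ± 0.24 and 4.11 ± 0.16. NFIB, a nuclear factor I family member, and FZD8, a WNT receptor, changed by 1.83 ± 0.16 and 2.22 ± 0.11 in LHCN-M2, and by -1.82 ± 0.07 and -1.78 ± 0.12 in C2C12, with differences of 3.65 ± 0.16 and 4.00 ± 0.16. The largest adjusted p of the difference over these 5 genes was 5.5e-13.

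Fibroblast and matrix genes were more often higher in LHCN-M2 and more often lower in C2C12. Of 57 genes, 49 were tested. In LHCN-M2, 23 were higher and 14 lower, against 25.1% and 22.7% of all genes. In C2C12, 13 were higher and 33 lower, against 41.3% and 31.5%. Higher in LHCN-M2 and lower in C2C12 were 16, against 5.42% of all genes. The reverse held for 4, against 6.28%. The median change was 0.26 in LHCN-M2 and -0.46 in C2C12, and the median difference of 0.79 stood beside -0.05 over all genes. POSTN (periostin), a matricellular protein, had 307, 339, 354 and 342 CPM at day 12 of LHCN-M2, against 63.2, 65.8, 54 and 63.4 at day 1. Mouse values were 314, 311, 298 and 302 CPM at day 6, against 818, 885, 764 and 848 at day 1 of C2C12 (difference 3.88 ± 0.14, adjusted p = 5.85e-17). COL1A1, a chain of type I collagen, had 12457, 13084, 13436 and 13476 CPM at day 12 of LHCN-M2, against 6679.99, 5788, 7313 and 6698 at day 1, a change of 0.99 ± 0.07, and 484, 467, 471 and 497 CPM at day 6 of C2C12, against 565, 537, 623 and 628 at day 1, a change of -0.29 ± 0.07. COL3A1, the chain of type III collagen, changed by 0.43 ± 0.06 in LHCN-M2 and by -0.2 ± 0.04 in C2C12, a difference of 0.63 ± 0.08 (adjusted p = 3.61e-07). COL14A1 went the other way, with 86.3 ± 5.7 CPM at day 12 and 204 ± 9.57 CPM at day 1 of LHCN-M2, and 7.48 ± 1.58 CPM at day 6 and 2.42 ± 0.822 CPM at day 1 of C2C12 (difference -2.88 ± 0.26, adjusted p = 1.15e-09). The 10 fibroblast markers summed to 38260 to 44680 CPM at day 12 and 32030 to 35320 CPM at day 1 of LHCN-M2, and to 13630 to 14760 CPM at day 6 and 24930 to 28320 CPM at day 1 of C2C12. TCF21 was at 0 in all 4 groups, and THY1 also at day 6 of C2C12. The sums rest mainly on FN1 and the collagens, and some markers went otherwise. DCN averaged 236 ± 4.25 CPM at day 12 and 287 ± 15.8 CPM at day 1 of LHCN-M2. In C2C12 it averaged 288 ± 15.5 CPM at day 6 and 157 ± 13.6 CPM at day 1. LUM was higher on the late day in both lines. FN1 averaged 17847 ± 2730 CPM at day 12 and 17580 ± 599 CPM at day 1 of LHCN-M2. The part of such cells in the matrix changes was not tested.

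Smooth muscle genes had the same directions. Of 10 tested, 6 were higher and 3 lower in LHCN-M2, against 25.1% and 22.7% of all genes. In C2C12, 2 were higher and 8 lower, against 41.3% and 31.5%. Opposite in the same sense were 5, against 5.42% of all genes. The median changes were 0.60 and -1.05. ACTA2, the smooth muscle actin that early myoblasts and myofibroblasts also make, had 325, 301, 346 and 337 CPM at day 12 of LHCN-M2, against 138, 126, 139.6 and 146 at day 1. At day 6 of C2C12 the values were 1472, 1527, 1331 and 1394 CPM, against 3024, 2659, 2352 and 2736 at day 1 (difference 2.16 ± 0.1, adjusted p = 1.44e-14). Actin genes are close copies of each other, so its counts may hold reads of other actins. LMOD1, the leiomodin of smooth muscle, averaged 12.7 ± 1.99 CPM at day 12 and 7.38 ± 0.833 CPM at day 1 of LHCN-M2, and 2.13 ± 0.18 CPM at day 6 and 40.9 ± 4.23 CPM at day 1 of C2C12 (difference 5.04 ± 0.19, adjusted p = 1.74e-16). The 6 smooth muscle markers summed to 847.2 to 925.4 CPM at day 12 and 397.6 to 430.2 CPM at day 1 of LHCN-M2, and to 1400 to 1599 CPM at day 6 and 2493 to 3190 CPM at day 1 of C2C12. The C2C12 sums rest almost wholly on ACTA2, whose counts are uncertain. None of the 6 markers was at 0 in any group. Only 4 averaged over 1 CPM on both days of LHCN-M2 and at day 6 of C2C12, and 5 at day 1 of C2C12. Their part in the result was not tested.

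TGF-beta and BMP signals control matrix genes and restrain muscle differentiation. Of 35 tested genes of these pathways, 18 were higher and 9 lower in LHCN-M2, against 25.1% and 22.7% of all genes. In C2C12, 9 were higher and 17 lower, against 41.3% and 31.5%. The difference was positive for 23 and negative for 3, against 27% and 29.9%. The count lower in LHCN-M2 lies near its share. Among the ligands, INHBB, a subunit of activin B, had 1.85, 2.01, 2 and 1.53 CPM at day 12 of LHCN-M2, against 0.634, 0.134, 0.325 and 0.383 at day 1, a rise of 2.32 ± 0.48, and 71.4, 70.6, 75.8 and 76.5 CPM at day 6 of C2C12, against 141, 138, 164 and 137 at day 1, a change of -0.98 ± 0.08. GREM1 and FST, both secreted antagonists, were the 2 of 35 tested members that were lower in LHCN-M2 and higher in C2C12, and the other antagonists of the list were not. GREM1 (chr15:32717974-32745107), which binds BMPs, had 1731, 1757, 1773 and 1687 CPM at day 12 of LHCN-M2, against 3747, 3995, 3848 and 3938 at day 1. In the mouse line it had 609.8, 597, 679.5 and 637 CPM at day 6, against 133, 135, 124 and 130.3 at day 1. It fell by 1.16 ± 0.07 in LHCN-M2 and rose by 2.27 ± 0.06 in C2C12 (difference -3.43 ± 0.09, adjusted p = 6.16e-19). FST (follistatin), which binds activins and myostatin, averaged 25.6 ± 1.22 CPM at day 12 and 43 ± 3.19 CPM at day 1 of LHCN-M2, and 14 ± 1.38 CPM at day 6 and 3.57 ± 0.623 CPM at day 1 of C2C12, opposite in the same sense as GREM1 (difference -2.72 ± 0.22, adjusted p = 1.6e-10).

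**Figure D3:**
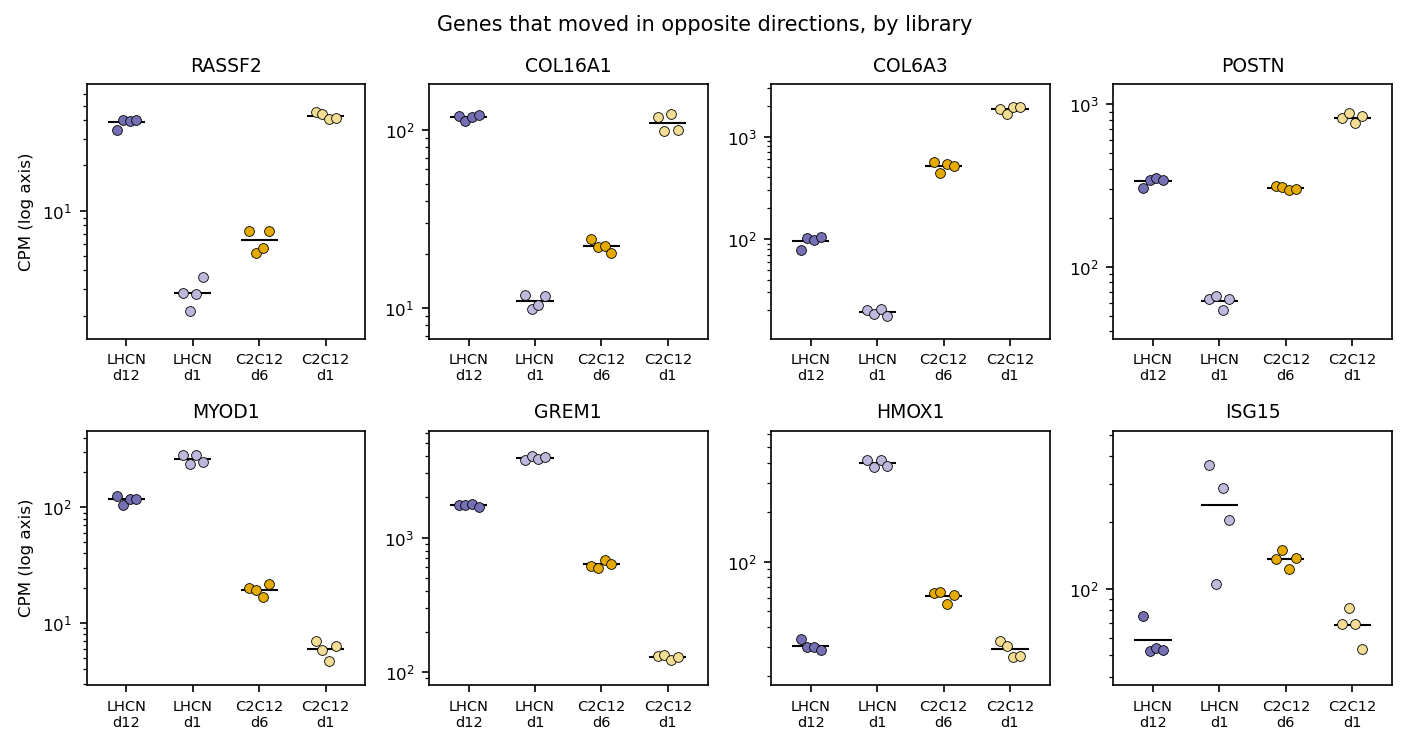
CPM by library on log axes for 8 genes with opposite changes; points are single libraries and bars are group means. RASSF2, COL16A1, COL6A3 and POSTN (upper row) are higher at day 12 in LHCN-M2 and lower at day 6 in C2C12, MYOD1, GREM1, HMOX1 and ISG15 (lower row) are the reverse, and ISG15 spreads from 105 to 363 CPM over the LHCN-M2 day 1 libraries.

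Cholesterol synthesis genes fell in LHCN-M2 and were divided in C2C12. Of 23 tested genes, 1 was higher and 21 were lower in LHCN-M2, against 22.7% of all genes lower. In C2C12, 9 were higher and 8 lower, against 41.3% and 31.5% of all genes, so the C2C12 counts lie near those shares. The median change was -1.08 in LHCN-M2 and 0.02 in C2C12. Opposite were 9 genes, lower in LHCN-M2 and higher in C2C12, against 6.28% of all genes. A negative difference was called for 18, against 29.9%. EBP (chrX:48521158-48528716), an isomerase of the late pathway, had 51.6, 42.6, 44.2 and 45.3 CPM at day 12 of LHCN-M2, against 108, 102, 101 and 101 at day 1. C2C12 had 110.3, 114, 95.1 and 112 CPM at day 6, against 49.5, 43, 42.3 and 42.7 at day 1. The changes were -1.16 ± 0.15 in LHCN-M2 and 1.28 ± 0.07 in C2C12 (difference -2.44 ± 0.17, adjusted p = 1.55e-11). INSIG1, the membrane sensor that holds back the sterol factor SREBP, had 213, 218, 216 and 209 CPM at day 12 of LHCN-M2, against 912, 942, 860.1 and 909.8 at day 1. In C2C12 it had 277, 283, 278 and 280.1 CPM at day 6, against 182, 171, 175 and 179 at day 1 (difference -2.74 ± 0.07, adjusted p = 9.82e-20). FDFT1 (squalene synthase) averaged 284 ± 15.6 CPM at day 12 and 611 ± 9 CPM at day 1 of LHCN-M2, and 299.6 ± 11.4 CPM at day 6 and 221 ± 11.8 CPM at day 1 of C2C12 (difference -1.55 ± 0.08, adjusted p = 6.26e-14).

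HMGCS1, an early enzyme of the pathway, fell by 1.49 ± 0.1 in LHCN-M2, with 177, 207, 193 and 198 CPM at day 12 of LHCN-M2, against 519.9, 568, 525 and 567 at day 1. In C2C12 it had 524, 546, 547 and 552 CPM at day 6, against 483, 504, 457 and 494 at day 1; this small change of 0.16 ± 0.05 was past the threshold (adjusted p = 0.00611) and was lost without any 1 of replicates 1, 3 and 4 of day 1 and 2, 3 and 4 of day 6 (adjusted p 0.0571 to 0.157), and with all contrasts from the joint fit (0.0753) or no filter on low counts (0.0875). PMVK was the single member higher in LHCN-M2 (0.6 ± 0.19, adjusted p = 0.0224), a call that was lost without replicate 1 of day 12 (adjusted p = 0.0712) and without replicates 1 or 2 of day 1 (adjusted p = 0.0541 and 0.0569). Its positive difference was likewise lost without replicate 1 of day 12 (adjusted p = 0.0575). At day 0, HMGCS1 had stood at 60.4 ± 9.72 CPM in LHCN-M2 and 321 ± 15.1 CPM in C2C12, below day 1 in both.

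SREBP factors bind sterol regulatory elements. The letters TCACNCCAC, read on both strands, were in 1 of the 15 mouse promoters of this list at hand (6.67%), that of Hmgcs1, against 1.44% of 27025. It is shown because it holds the only match in the list (chr13:119690101-119690400, plus strand); the capitals mark it, and it begins 137 bases before the start.
Hmgcs1: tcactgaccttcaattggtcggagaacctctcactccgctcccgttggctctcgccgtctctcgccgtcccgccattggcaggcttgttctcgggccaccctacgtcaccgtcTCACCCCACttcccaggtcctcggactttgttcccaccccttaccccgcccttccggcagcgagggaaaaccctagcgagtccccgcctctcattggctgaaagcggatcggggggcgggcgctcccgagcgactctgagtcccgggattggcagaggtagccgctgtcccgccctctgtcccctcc

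Interferon response genes were lower in LHCN-M2 and mixed in C2C12. Of 28 tested, 1 was higher and 17 were lower in LHCN-M2, against 25.1% and 22.7% of all genes. In C2C12, 14 were higher and 6 lower, against 41.3% and 31.5%. The number lower in LHCN-M2 and higher in C2C12 was 8, against 6.28% of all genes. A negative difference was called for 17, against 29.9%. The median changes were -0.93 and 0.38. ISG15, a ubiquitin-like protein, had 75.5, 52.6, 54.1 and 52.9 CPM at day 12 of LHCN-M2, against 363, 105, 286 and 206 at day 1. The C2C12 libraries had 137, 150.3, 123 and 139 CPM at day 6, against 69.1, 81.9, 69.4 and 53.3 at day 1. It fell by 2.03 ± 0.54 in LHCN-M2 (adjusted p = 0.00752) and rose by 1.00 ± 0.24 in C2C12 (adjusted p = 0.000965), a call that was lost when all contrasts came from the joint fit of both lines (adjusted p = 0.0598). IFIT3, a protein that helps bind foreign RNA, had 74, 71.5, 73.8 and 70.02 CPM at day 12 of LHCN-M2, against 285, 96.7, 231 and 202 at day 1. Its C2C12 values were 272, 277, 280.1 and 259 CPM at day 6, against 90.6, 176, 153 and 89.1 at day 1. The changes were -1.49 ± 0.33 in LHCN-M2 and 1.1 ± 0.27 in C2C12. OAS2, which makes the activator of RNase L, had 27.3, 29.5, 30.7 and 24.7 CPM at day 12 of LHCN-M2, against 100.04, 31.1, 86.7 and 59.2 at day 1. Day 6 of C2C12 had 62.7, 61.6, 69.2 and 69.3 CPM, against 19.7, 46.1, 37.2 and 26 at day 1. The days did not overlap for these 3 genes, but the day 1 libraries of LHCN-M2 spread widely, with replicate 2 the lowest for all 3. IFIT and OAS genes form families whose members may share reads, and their match by symbol is less certain than that of single genes.

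The fall of OAS2 in LHCN-M2 (-1.31 ± 0.43, adjusted p = 0.0244) was lost without replicate 1 or 3 of day 1 (adjusted p = 0.0819 and 0.0656) and without replicate 1, 2 or 4 of day 12 (adjusted p = 0.0544, 0.0514 and 0.0652). BST2 (tetherin) had 4.12, 2.37, 1.87 and 3.33 CPM at day 12 of LHCN-M2, against 9.64, 2.07, 6.96 and 5.97 at day 1, a change of -1.07 ± 0.59 that did not pass the test (adjusted p = 0.173), and 442, 488, 409 and 486 CPM at day 6 of C2C12, against 87.4, 118, 120.5 and 93 at day 1, a rise of 2.12 ± 0.16. IRF1, a transcription factor of the response, was the single member higher in LHCN-M2 and was lower in C2C12, with 17.7 ± 0.921 CPM at day 12 and 14.6 ± 1.43 CPM at day 1 of LHCN-M2, and 65 ± 3.41 CPM at day 6 and 99.8 ± 1.38 CPM at day 1 of C2C12. Its rise in LHCN-M2 (0.28 ± 0.11, adjusted p = 0.0462) was lost without any 1 of 7 libraries, each of day 12 and replicates 1 to 3 of day 1 (adjusted p 0.0632 to 0.148), with upper-quartile factors (0.0799) and with no filter on low counts (0.123).

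The interferon-stimulated response element is a promoter motif of interferon-induced genes. Part of it, the letters GAAANNGAA, read on both strands, was in 13 of the 23 mouse promoters of the list at hand (56.5%), against 9.76% of 27025. The promoters of Isg15 (chr4:156200769-156201068, minus strand) and Ifit3 (chr19:34583279-34583578, plus strand) are shown because both genes were opposite between the lines. The capitals mark 3 overlapping matches in Isg15 that begin 78, 72 and 66 bases before the start, and 3 matches on the other strand in Ifit3, which begin 155, 121 and 102 bases before it.
Isg15: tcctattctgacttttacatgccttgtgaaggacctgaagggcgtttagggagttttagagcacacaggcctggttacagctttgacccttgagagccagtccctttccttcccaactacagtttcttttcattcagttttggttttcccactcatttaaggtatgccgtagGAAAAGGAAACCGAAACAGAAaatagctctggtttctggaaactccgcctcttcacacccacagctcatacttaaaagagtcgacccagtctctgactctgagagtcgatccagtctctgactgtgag
Ifit3: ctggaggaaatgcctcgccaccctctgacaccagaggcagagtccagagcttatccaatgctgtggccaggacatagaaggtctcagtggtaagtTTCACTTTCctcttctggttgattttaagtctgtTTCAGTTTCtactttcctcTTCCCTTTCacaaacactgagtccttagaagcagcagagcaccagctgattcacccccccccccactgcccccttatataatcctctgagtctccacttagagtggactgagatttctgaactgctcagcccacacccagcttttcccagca

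**Figure D4:**
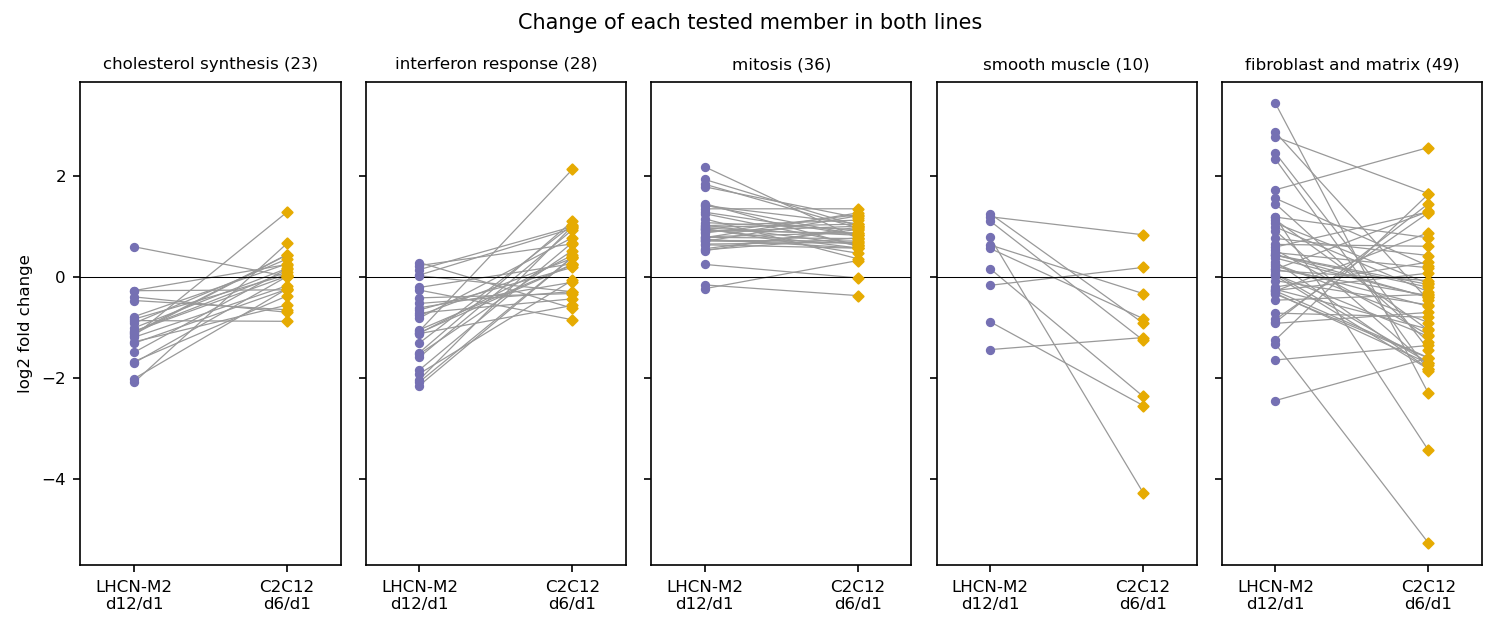
Each line joins the log2 fold change of 1 gene in LHCN-M2 (left, circles) with that in C2C12 (right, diamonds) for 5 lists, with the number of tested genes in brackets. Cholesterol synthesis and interferon genes lie mostly below 0 in LHCN-M2 and around or above 0 in C2C12, mitosis genes lie above 0 in both with few exceptions, and smooth muscle and matrix genes tend downward to the right.

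Other genes lower in LHCN-M2 and higher in C2C12 belonged to none of these groups. HMOX1 (heme oxygenase 1), which breaks down heme under oxidative stress, had 33.8, 29.9, 30.1 and 28.9 CPM at day 12 of LHCN-M2, against 419, 381, 420.03 and 386 at day 1. Mouse values were 64.6, 65.1, 55.1 and 62.1 CPM at day 6, against 32.7, 30.7, 26.3 and 26.6 at day 1 of C2C12. The changes were -3.71 ± 0.12 in LHCN-M2 and 1.08 ± 0.09 in C2C12 (difference -4.79 ± 0.15, adjusted p = 8.52e-18). CTHRC1, a secreted protein of the matrix, had 5.6, 3.04, 3 and 3.24 CPM at day 12 of LHCN-M2, against 12.4, 13.6, 11.4 and 13.4 at day 1. At day 6 of C2C12 the values were 9.27, 11.3, 11.2 and 9.82 CPM, against 0.582, 0.721, 0.138 and 0.463 at day 1 (difference -6.21 ± 0.37, adjusted p = 7.52e-13). Replicate 1 of LHCN-M2 day 12 had the highest CTHRC1 value of its group, still below all day 1 libraries. TCEAL7, a small nuclear protein, had 23.5, 21.2, 24.2 and 21.2 CPM at day 12 of LHCN-M2, against 33.6, 34.4, 28 and 28.3 at day 1, a change of -0.46 ± 0.11 (adjusted p = 0.00437). It had 2346 counts at day 6 and 2 at day 1 of C2C12, a 1300-fold ratio (interval 359.4 to 10740).

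Genes called in 1 line alone, with the difference called, included components of the Z-disc and of the cell membrane. LDB3, a Z-disc protein, had 100.4, 109, 118 and 120.2 CPM at day 12 of LHCN-M2, against 2.51, 2.36, 2.38 and 2.2 at day 1. In the mouse line it had 42.9, 43.6, 42.6 and 44.2 CPM at day 6, against 45.4, 43.9, 45.7 and 42.3 at day 1. Its rise was 5.56 ± 0.19 in LHCN-M2 beside -0.03 ± 0.06 in C2C12 (difference 5.59 ± 0.17, adjusted p = 6.41e-18). DNAJA4, a co-chaperone of the Hsp40 family, averaged 13.8 ± 0.834 CPM at day 12 and 0.517 ± 0.166 CPM at day 1 of LHCN-M2, and 10.7 ± 0.278 CPM at day 6 and 9.28 ± 1.18 CPM at day 1 of C2C12 (difference 4.53 ± 0.26), and FAM83H averaged 32.7 ± 4.65 CPM at day 12 and 1.26 ± 0.731 CPM at day 1 of LHCN-M2, and 12.9 ± 2.71 CPM at day 6 and 12.3 ± 0.773 CPM at day 1 of C2C12 (difference 4.61 ± 0.33). Both were thus low at day 1 of LHCN-M2 and already present at day 1 of C2C12. PDLIM3, another Z-disc protein, was the reverse of LDB3 and had 508, 469, 489.8 and 485 CPM at day 12 of LHCN-M2, against 517, 489, 519.8 and 487 at day 1. C2C12 had 98.5, 96.4, 87.8 and 85.1 CPM at day 6, against 4.97, 5.48, 3.98 and 3.58 at day 1 (difference -4.39 ± 0.12, adjusted p = 6.33e-19). CAV3, the caveolin of muscle membranes, had 84, 74.1, 82.3 and 73.9 CPM at day 12 of LHCN-M2, against 81.2, 74.3, 86.8 and 79.6 at day 1. In C2C12 it had 10.7, 12.6, 13.4 and 12.3 CPM at day 6, against 0.0895, 0.192, 0 and 0.206 at day 1. Its days overlapped in LHCN-M2 and were far apart in C2C12 (difference -6.69 ± 0.37, adjusted p = 2.37e-13).

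Other genes fell in 1 line alone. In LHCN-M2, ITGA10, a collagen-binding integrin, fell by 2.24 ± 0.09, with 25.1, 22.9, 25.9 and 23 CPM at day 12 of LHCN-M2, against 118, 111, 119 and 109 at day 1, and ACSS2, which makes acetyl-CoA from acetate, fell by 1.82 ± 0.08. Their changes in C2C12 of 0.13 ± 0.13 and 0.15 ± 0.08 did not pass the test. In C2C12, SVEP1, a large matrix protein, fell by 4.23 ± 0.14, with 7.84, 4.27, 6.43 and 5.7 CPM at day 6 of C2C12, against 114, 105, 126 and 115 at day 1, PIEZO2, a mechanosensitive channel, fell by 3.06 ± 0.1, and FAT4, a giant cadherin, fell by 3.00 ± 0.11. In LHCN-M2 those 3 genes changed by 0.03 ± 0.18, 0.21 ± 0.19 and 0.09 ± 0.26, none past the threshold, and replicate 1 of day 12 had the lowest value of its group for each. BMPR1B, a BMP receptor, rose in C2C12 by 2.89 ± 0.19 beside 0.14 ± 0.17 in LHCN-M2. ABRA, an actin-binding protein of striated muscle, had 2050 counts at day 6 and 0 at day 1 of C2C12, at least 757-fold, and stayed under 1 CPM in LHCN-M2, with 67 counts at day 12 and 2 at day 1, a 37.2-fold ratio (interval 9.89 to 313.1). The difference for ABRA passed the test (adjusted p = 0.00505), and was lost without replicate 1 of LHCN-M2 day 1, the single library with counts there (adjusted p = 1).

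Of 18 glycolysis genes tested, 3 were higher and 7 lower in LHCN-M2, against 25.1% and 22.7% of all genes. In C2C12, 16 were higher and 2 lower, against 41.3% and 31.5%. Lower in LHCN-M2 and higher in C2C12 were 7, against 6.28% of all genes. HK2 (hexokinase 2), the first step of glycolysis in muscle, averaged 22.7 ± 2.65 CPM at day 12 and 32 ± 3.22 CPM at day 1 of LHCN-M2, and 76.5 ± 6.28 CPM at day 6 and 58.2 ± 4.88 CPM at day 1 of C2C12 (difference -0.89 ± 0.15, adjusted p = 2.16e-05). ENO3, the muscle form of enolase, rose in both, with 115 ± 8.71 CPM at day 12 and 14.1 ± 0.76 CPM at day 1 of LHCN-M2, and 584 ± 22.4 CPM at day 6 and 335 ± 22.5 CPM at day 1 of C2C12, and more in LHCN-M2 (difference 2.23 ± 0.17, adjusted p = 8.67e-11). Creatine kinase, glycogen and fuel uptake genes of muscle had 15 of 18 tested members higher and 1 lower in LHCN-M2, and 11 higher and 2 lower in C2C12, against 25.1% and 41.3% of all genes higher. Median changes were 1.79 and 0.64, and the difference was positive for 7 members and negative for 3, against 27% and 29.9% of all genes. CD36, a fatty acid transporter, had 41.5, 41.4, 43 and 41.6 CPM at day 12 of LHCN-M2, against 3.07, 4.12, 3.28 and 4.12 at day 1. The C2C12 libraries had 12.1, 10.4, 11.1 and 13.6 CPM at day 6, against 0 CPM in every library at day 1. CD36 rose by 3.52 ± 0.19 in LHCN-M2 and at least 669-fold in C2C12. FABP3, a fatty acid carrier, fell by 0.39 ± 0.11 in LHCN-M2 (adjusted p = 0.013, but 0.0638 with all contrasts from the joint fit) and rose by 3.23 ± 0.34 in C2C12.

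Of all genes, 25.1% were higher and 22.7% lower in LHCN-M2, and 41.3% were higher and 31.5% lower in C2C12. A negative difference was called for 29.9%. The respiratory chain, proteasome, citric acid cycle and fatty acid oxidation lists are read against these shares. Of 43 respiratory chain genes, 8 were higher and 0 lower in LHCN-M2, and 39 were higher and 3 lower in C2C12, with median changes of 0.11 and 0.46. The difference was negative for 20 of them, and for 12 or 13 without replicate 2 or 4 of C2C12 day 1 or replicate 2 of day 6. Of 31 proteasome genes, 15 were higher and 0 lower in LHCN-M2, and 30 were higher and 1 lower in C2C12, with a negative difference in 22. PSMD6, a lid subunit, averaged 91.3 ± 6.28 CPM at day 12 and 83.6 ± 3.36 CPM at day 1 of LHCN-M2, and 185 ± 6.91 CPM at day 6 and 92.2 ± 1.54 CPM at day 1 of C2C12 (difference -0.88 ± 0.09, adjusted p = 2.19e-08). The citric acid cycle had 7 of 16 members higher in LHCN-M2 and 11 in C2C12, with 2 lower in each. IDH2, the mitochondrial isocitrate dehydrogenase linked to NADP, rose in LHCN-M2 by 1.48 ± 0.09 and changed by 0.01 ± 0.05 in C2C12 (adjusted p = 0.862). Fatty acid oxidation had 7 of 16 members higher and 0 lower in LHCN-M2, and 5 higher and 3 lower in C2C12. ACADS, a dehydrogenase of short acyl chains, fell by 1.08 ± 0.08 in C2C12, and its change of 0.32 ± 0.2 in LHCN-M2 did not pass the test (adjusted p = 0.217).

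Of 33 Notch, WNT and hedgehog genes tested, 11 were higher and 12 lower in LHCN-M2, against 25.1% and 22.7% of all genes. In C2C12, 13 were higher and 16 lower, against 41.3% and 31.5%. Higher in both lines were 5 and lower in both 6, against 13.9% and 10.4% of all genes. Opposite were 5 higher in LHCN-M2 and lower in C2C12, against 5.42%, and 5 of the reverse kind, against 6.28%. Among the ligands, WNT5A had 152, 166, 169 and 170.1 CPM at day 12 of LHCN-M2, against 280.5, 309.7, 267 and 283 at day 1. Its C2C12 values were 2.94, 4.54, 2.34 and 2.62 CPM at day 6, against 0 CPM in every library at day 1. It fell by 0.79 ± 0.11 in LHCN-M2 and rose at least 172-fold in C2C12. Among the secreted antagonists, SFRP4 had 27 ± 2.82 CPM at day 12 and 3.39 ± 0.587 CPM at day 1 of LHCN-M2, a rise of 2.99 ± 0.19, while its change of 0.14 ± 0.14 in C2C12 did not pass the test (adjusted p = 0.38). HEYL, a Notch target, had 67 ± 5.65 CPM at day 12 and 158 ± 11.4 CPM at day 1 of LHCN-M2, and 2.42 ± 0.229 CPM at day 6 and 1.17 ± 0.284 CPM at day 1 of C2C12; its rise in C2C12 (adjusted p = 0.013) was lost without replicate 3 of day 1 (adjusted p = 0.058).

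Immediate early genes and growth factors of the IGF family also contained opposite members. Of 27 immediate early genes, 11 were higher and 6 lower in LHCN-M2, against 25.1% and 22.7% of all genes. In C2C12, 14 were higher and 9 lower, against 41.3% and 31.5%. Of the 7 opposite genes, 5 were higher in LHCN-M2 and 2 lower, against 5.42% and 6.28% of all genes. The counts of lower genes lie near their shares in both lines. EGR2, a zinc finger factor, had 22.9, 23.3, 30.4 and 27.1 CPM at day 12 of LHCN-M2, against 2.81, 2.74, 2.14 and 3.4 at day 1. Day 6 of C2C12 had 9.34, 8.24, 11.3 and 9.5 CPM, against 18.8, 19.4, 17.9 and 22 at day 1 (difference 4.25 ± 0.19, adjusted p = 4.8e-15). EGR3 had the same directions, with 1.24 ± 0.534 CPM at day 12 and 0.246 ± 0.116 CPM at day 1 of LHCN-M2, and 16.1 ± 1.43 CPM at day 6 and 29.6 ± 2.29 CPM at day 1 of C2C12, and JUND, a member of the AP-1 factors, had the reverse ones, with 64.8 ± 4.41 CPM at day 12 and 108 ± 9.49 CPM at day 1 of LHCN-M2, and 42 ± 3.19 CPM at day 6 and 25.3 ± 0.779 CPM at day 1 of C2C12. Of 15 IGF and growth genes, 5 were higher and 5 lower in LHCN-M2, and 7 were higher and 7 lower in C2C12. The same shares of all genes apply to them. IGFBP5, a binding protein of muscle differentiation, had 924, 1088, 1128 and 1118 CPM at day 12 of LHCN-M2, against 58.8, 66.7, 63.2 and 57.3 at day 1. Mouse values were 456, 402, 441 and 441 CPM at day 6, against 128, 121, 124 and 137 at day 1 of C2C12. IGFBP5 rose more in LHCN-M2 (difference 2.34 ± 0.2, adjusted p = 4.25e-10). IGFBP7 averaged 538 ± 44 CPM at day 12 and 312 ± 15.3 CPM at day 1 of LHCN-M2, and 269 ± 22.7 CPM at day 6 and 409.8 ± 41.7 CPM at day 1 of C2C12, and HMGA2, a chromatin protein of undifferentiated cells, averaged 13 ± 1.23 CPM at day 12 and 58.2 ± 6.15 CPM at day 1 of LHCN-M2, and 110.01 ± 3.77 CPM at day 6 and 73.9 ± 4.29 CPM at day 1 of C2C12; they were opposite in opposite senses, with differences of 1.39 ± 0.16 and -2.74 ± 0.13.

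Across the lists with at least 5 tested genes, smooth muscle, matrix and TGF-beta genes had median differences above 0.7 on the log2 scale, and interferon, cholesterol, glycolysis and neuromuscular junction genes had median differences below -0.7.

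**Figure D5:**
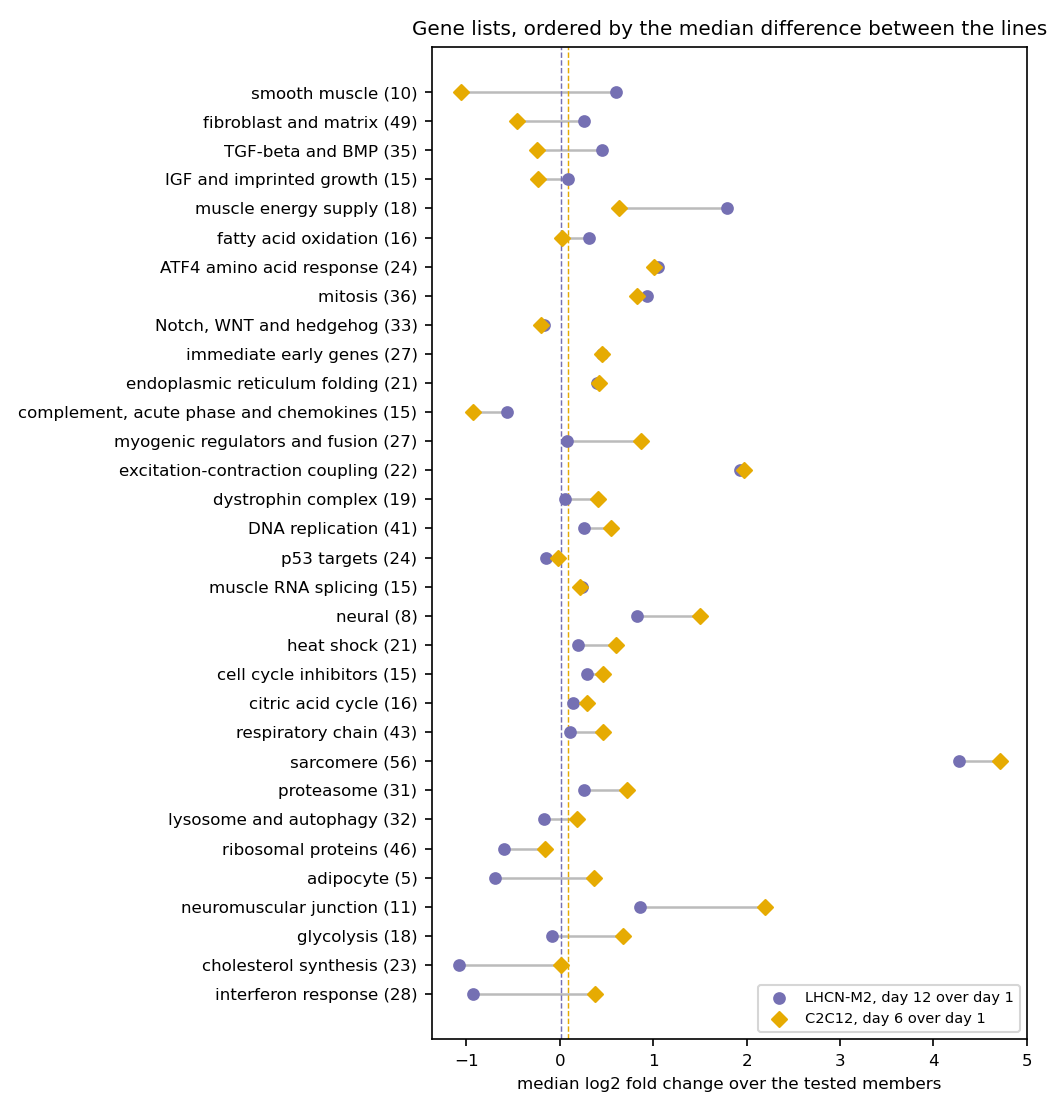
Median log2 fold change over the tested members of each list with at least 5 tested genes (number in brackets), for LHCN-M2 (circles) and C2C12 (diamonds); dashed lines mark the medians over all genes, 0.01 in LHCN-M2 and 0.08 in C2C12. Smooth muscle stands at the top, with 0.60 and -1.05, the sarcomere far to the right in both lines, and interferon genes at the bottom, with -0.93 and 0.38.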

How the data were processed

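Polyadenylated RNA was sequenced from LHCN-M2 at days 12, 1 and 0 and C2C12 at days 6, 1 and 0, with 4 libraries per group. The authors deposited raw counts per gene, and the values are whole-number counts. The submitters' processing notes name featureCounts 2.0.6, HISAT2 2.2.1, fastp and StringTie 2.2.3, and the builds mm10 and GRCh38. For the annotation release and the strand setting of the counting, the sources used here give nothing, so reads of overlapping genes on opposite strands may not have been told apart. The tables hold 58735 human and 56748 mouse rows. Human positions are those of the deposited table, and mouse promoters come from RefSeq on GRCm38.p6.

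Changes within a line came from edgeR 4.0.16 (R 4.3.3, quasi-likelihood test) on all 12 libraries of the line and its whole table, with edgeR's filter by expression (18214 human and 17065 mouse genes kept), TMM factors and Benjamini-Hochberg adjustment over those genes. The difference between the lines was tested in 1 fit of all 24 libraries on the 10953 genes, with TMM factors computed within each line and 1 dispersion for both. The spread differed between the lines (17.8% in LHCN-M2 and 10.9% in C2C12), so this fit can understate the error in LHCN-M2. With all contrasts from this fit, LHCN-M2 had 3217 genes higher and 2912 lower, against 2746 and 2487 within the line. C2C12 had 4163 higher and 3216 lower, against 4520 and 3450. Calls used an adjusted p under 0.05. SE was taken from the fold change and its F statistic. CPM were computed from the deposited counts. Folds of genes with 3 or fewer counts in a group were given against a floor of 3 counts over the group, or as a ratio with a 95% counting interval; these cover counting error only.

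The matched genes, the 35 gene lists (931 genes), the motifs and the tests were chosen with earlier results of these data known. Named genes came from a rule. It took the 8 shared or opposite calls of each kind with the largest smaller change. It also took 3 genes called in 1 line alone per line and direction. Both of these classes needed at least 10 CPM on 1 of the 2 days in each line. Opposite and extreme members of each list were added with no CPM minimum, so some were low in a line. Further, 3 genes per line had 3 or fewer counts on day 1 and at least 10 CPM on the late day. MYOG, CCNB2, MKI67, HMGCS1, COL1A1 and COL3A1 fall outside it and were chosen after their values were seen. DCN, LUM and FN1 also fall outside it and were described as members of the fibroblast markers. Not every gene the rule gives is described. The alternatives tried were DESeq2 1.42.0, other scaling factors, other filters, other sample sets, the replicate number as a block, each library left out, and a 2-fold minimum. No pair of libraries agreed within sampling noise (chi-square per degree of freedom 6.43 to 32.8 within groups).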

Additional observations from a re-analysis of the deposited data

Results flagged for a closer look

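Among 106 genes in 4 groups of 4 libraries, 29 of 424 groups had 1 library whose gap to its nearest neighbour exceeded Dixon's 95% critical share of the group's range, and about 21 are expected by chance, 1 in 20 groups. Replicate 1 of LHCN-M2 day 12 gave 10 of them. In it, RASSF2 (34.31), SLC6A17 (17.11), PIEZO2 (51.94), ABRA (0.3202) and XIRP2 (4.94 CPM) were below the other 3 libraries, and CTHRC1 (5.604), ISG15 (75.55), ECT2 (45.38), CCNG2 (103.1) and CTSL (176.5 CPM) were above them. Elsewhere at day 12 of LHCN-M2, CD36 stood apart in replicate 3 with 42.99 CPM.

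At day 1 of LHCN-M2, replicate 1 stood apart for EBP (107.8), ID3 (17.37) and ABRA (0.04879 CPM), replicate 2 for MYF5 (69.28), ECT2 (29.2) and LMOD2 (0.04451 CPM), and replicate 4 for SRL (0.02396 CPM). At day 1 of C2C12, replicate 4 stood apart for TNNT3 (6.46), IRF1 (97.7), RBM24 (0.3603) and TCEAL7 (0.05147 CPM), replicate 3 for FZD8 (19.32), PIEZO2 (185.3) and INHBB (163.5 CPM), replicate 1 for EBP (49.48), CHAC1 (6.196) and SMPX (0.04474 CPM), and replicate 2 for DNAJB1 (68.37 CPM). The lowest of these values stand for 1 or 2 counts.

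The change differed between LHCN-M2 and C2C12, by the interaction test at an adjusted p under 0.05, for 97 of the 106 genes; positive values below mean a more positive log2 change in LHCN-M2. The genes were chosen in part for this difference, so the number is no measure of its frequency. Genes with a shared direction included differences of 2.67 for TNNI2, -2.62 for MYOM3, 3.13 for CASQ2, -0.84 for MYL1, 1.18 for SFRP1, 0.60 for SLC1A3, -0.93 for KCND1, 0.24 for GAS1, -0.84 for FBLN1, -1.20 for MYOG and 2.23 for ENO3. Other differences in growth and matrix genes were 2.34 for IGFBP5, 1.39 for IGFBP7, -2.74 for HMGA2, 3.88 for POSTN, 1.28 for COL1A1, 0.63 for COL3A1, -2.88 for COL14A1, 5.04 for LMOD1, 2.16 for ACTA2, 3.31 for INHBB and -2.72 for FST. Genes higher in LHCN-M2 and lower in C2C12 had differences of 6.51 for RASSF2, 5.87 for SLC6A17, 5.73 for COL16A1, 4.11 for THBD, 4.14 for SLC4A4, 4.18 for COL6A3, 3.65 for NFIB and 4.00 for FZD8. Genes lower in LHCN-M2 and higher in C2C12 had differences of -6.21 for CTHRC1, -2.44 for EBP, -3.43 for GREM1, -2.86 for MYOD1, -2.59 for IFIT3, -4.79 for HMOX1, -2.33 for OAS2 and -3.03 for ISG15.

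Genes called in 1 line alone differed by 5.59 for LDB3, 4.53 for DNAJA4, 4.61 for FAM83H, -2.37 for ITGA10, -2.09 for MYF5, -1.97 for ACSS2, -6.69 for CAV3, -4.39 for PDLIM3, -2.75 for BMPR1B, 4.27 for SVEP1, 3.26 for PIEZO2 and 3.09 for FAT4. For genes at or near 0 counts in a group the fitted difference depends on the prior count and is no bound: it was 3.87 for LMOD2, 6.88 for SRL, -10.47 for TCEAL7, -7.20 for ABRA, -3.44 for SMPX, 8.85 for XIRP2, 12.15 for TRDN, -9.01 for DMD, -8.36 for CD36 and -10.74 for WNT5A. Muscle genes of the lists differed by -8.18 for MYBPC2, 2.34 for ID3, -4.82 for MYMX, -2.08 for ID2, -5.03 for JSRP1, 2.25 for LRP4, -3.46 for SGCA, -3.61 for FABP3, -0.89 for HK2, 1.47 for IDH2, 1.41 for ACADS and -4.85 for RBM24. Cell cycle and stress genes differed by 1.43 for CENPA, -0.50 for ECT2, 0.79 for MKI67, -1.35 for TYMS, 1.52 for CDKN1C, -1.57 for CCNG2, -3.58 for STC2, 1.96 for CHAC1, -7.23 for VLDLR, -1.44 for DNAJB1, -0.88 for PSMD6 and -1.55 for CTSL. Sterol, interferon and signalling genes differed by -2.74 for INSIG1, -1.55 for FDFT1, 0.58 for PMVK, -1.65 for HMGCS1, 0.90 for IRF1, -3.18 for BST2, 8.82 for C3, 3.37 for PTX3, 4.25 for EGR2, 3.21 for EGR3, -1.46 for JUND, -2.29 for HEYL and 2.85 for SFRP4.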

How the results depend on the processing

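The 10 group counts stayed within 1.5 times their value under every alternative but the 2-fold minimum. With that minimum, LHCN-M2 had 846 genes higher and 430 lower, C2C12 had 783 higher and 921 lower, the difference was positive for 1240 and negative for 947, 273 genes were higher and 99 lower in both lines, 83 were higher in LHCN-M2 and lower in C2C12, and 43 were the reverse. Leaving out each library in turn gave 2386 to 2772 genes higher and 2130 to 2505 lower in LHCN-M2, 4015 to 4546 higher and 3357 to 3655 lower in C2C12, 2811 to 3113 positive and 2834 to 3321 negative differences, 1332 to 1489 genes higher and 1002 to 1190 lower in both, and 517 to 640 and 574 to 666 opposite. No called value changed direction. Of 287 values of named genes, 10 lost their call in at least 1 alternative, and each loss is given beside the gene, except that of IRF1 in LHCN-M2 under the block (adjusted p = 0.0873). Of 70 counts over lists, 67 of 1680 recomputed values moved by over 1.5 times. The largest shift of the median difference over all genes was 0.053 on the log2 scale, with DESeq2. Whether replicate numbers pair the samples is not stated. The deviations of same-numbered libraries correlated at 0.257, 0.111, 0.0764 and 0.0663 in LHCN-M2 and at 0.0341, -0.0364, 0.0620 and -0.00396 in C2C12. In LHCN-M2, late replicates 1, 2 and 3 correlated most with their own number at day 1, and replicate 4 with number 3. In C2C12, replicates 1 and 3 did so, and replicates 2 and 4 did not. A weak pairing in LHCN-M2 is thus not excluded. With the replicate number as a block, 2581 genes were higher and 2363 lower in LHCN-M2, 4477 and 3424 in C2C12, 2854 and 3176 for the difference, 1431 and 1085 shared, and 561 and 644 opposite. Depth limits genes of a few counts, such as ABRA in LHCN-M2.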

Other observations

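Lists not described above were mixed. Their counts, here and in the next paragraph, are read against the shares of all genes. These were 25.1% higher and 22.7% lower in LHCN-M2, and 41.3% higher and 31.5% lower in C2C12. Lower in LHCN-M2 and higher in C2C12 were 6.28% of all genes. Of 32 lysosome and autophagy genes, 7 were higher and 13 lower in LHCN-M2, and 17 were higher and 9 lower in C2C12; 9 were lower in LHCN-M2 and higher in C2C12, among them CTSL (cathepsin L), with 155 ± 14.2 CPM at day 12 and 250.2 ± 15.1 CPM at day 1 of LHCN-M2, and 981 ± 32.5 CPM at day 6 and 538 ± 15.3 CPM at day 1 of C2C12. Of 21 heat shock genes, 11 were higher and 4 lower in LHCN-M2, and 17 were higher and 3 lower in C2C12. DNAJB1, an Hsp40 co-chaperone, averaged 97.8 ± 3.2 CPM at day 12 and 139.8 ± 4.94 CPM at day 1 of LHCN-M2, and 127 ± 4.29 CPM at day 6 and 66.5 ± 1.28 CPM at day 1 of C2C12, opposite between the lines. Of 21 genes of endoplasmic reticulum folding, 13 were higher and 3 lower in LHCN-M2, and 16 were higher and 4 lower in C2C12. Of 15 muscle RNA splicing genes, 7 were higher and 3 lower in LHCN-M2, and 8 were higher and 4 lower in C2C12; RBM24, a muscle splicing factor, averaged 122 ± 3.46 CPM at day 12 and 83.8 ± 5.65 CPM at day 1 of LHCN-M2, and 9.54 ± 0.928 CPM at day 6 and 0.229 ± 0.0878 CPM at day 1 of C2C12, and rose in both. Of 24 p53 targets, 7 were higher and 9 lower in LHCN-M2, and 10 were higher and 8 lower in C2C12.

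Of 15 complement, acute phase and chemokine genes, 3 were higher and 7 lower in LHCN-M2, and 4 were higher and 9 lower in C2C12. C3, the central complement component, averaged 2.05 ± 0.674 CPM at day 12 and 8.45 ± 2.1 CPM at day 1 of LHCN-M2, and 0.159 ± 0.0433 CPM at day 6 and 299.8 ± 26.8 CPM at day 1 of C2C12; it fell in both lines and further in C2C12. PTX3, a secreted pattern recognition protein, averaged 40.7 ± 3.38 CPM at day 12 and 29.7 ± 5.45 CPM at day 1 of LHCN-M2, and 7.9 ± 0.836 CPM at day 6 and 59.3 ± 2.57 CPM at day 1 of C2C12, higher in LHCN-M2 and lower in C2C12. Of the lists of other cell types, 4 of 8 neural genes were higher and 3 lower in LHCN-M2, and 6 were higher and 1 lower in C2C12. The 6 neural markers summed to 489.3 to 535.3 CPM at day 6 and 154.8 to 166.7 CPM at day 1 of C2C12, with SNAP25 at 0 on both days. In LHCN-M2 they summed to 5.789 to 7.965 CPM at day 12 and 7.954 to 10.3 CPM at day 1. Of 5 adipocyte genes, 1 was higher and 2 lower in LHCN-M2, and 3 were higher and 1 lower in C2C12. Of 4 bone and cartilage genes, 4 were lower in LHCN-M2, and 1 was higher and 1 lower in C2C12. Of 3 immune genes, none was called in LHCN-M2 and 1 was lower in C2C12, and of 2 endothelial genes both were higher in LHCN-M2 and neither was called in C2C12 by edgeR's test.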
